A study of Caenorhabditis elegans with 12 samples.

Results

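RNA-Seq of day 3 adults compared *alh-6* mutant animals with wild type (WT) in 6 of the 12 libraries of the study, 3 for each genotype, chosen by the genotype and stage in their labels. All 6 libraries came from whole worms that were hatched as synchronized L1 larvae, fed *E. coli* OP50 on NGM plates and frozen 120 hr after plating. WT was N2 Bristol. The mutant carried *alh-6(lax105)*, a loss-of-function allele that every cell of the animal holds, in the same N2 Bristol background, and the labels list no drug or RNAi for either group. The other 6 libraries were L4 animals of the same genotypes at 48 hr, and they enter below only where the stages are compared. The comparison asked which transcripts changed in the mutant once the animals were adults. The study calls its replicates biological, the labels do not say whether they were separate cultures, and the p-values measure the spread between these libraries.

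ALH-6 is the mitochondrial enzyme that completes proline catabolism. PRDH-1 first oxidizes proline to the reactive intermediate pyrroline-5-carboxylate (P5C), and ALH-6 then converts P5C to glutamate. *alh-6* mutants are known for activating SKN-1, the worm NRF factor that turns on glutathione and detoxification genes, and *gst-4* is the usual reporter of that activity. A hermaphrodite at this age holds a large germ line, oocytes and embryos in the uterus, an intestine that makes yolk, and muscle, nerve and epidermis that no longer grow by molting.

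Expression is in FPKM, the reads of a gene relative to its length and to the total of reads on genes in a library. The WT libraries had 20450798 to 22502295 reads on genes and the *alh-6* libraries 19611354 to 20294269. Day 3 replicates varied beyond counting error (chi-square divided by its degrees of freedom, 3.82 to 21.99), and *alh-6* replicate 3 stood farthest from its group. In that library the cytosolic ribosomal protein genes took 7.23% of reads, against 5.40% to 6.15% in the other 5. The stage of the animals was checked against marker genes. Summed oocyte markers were at 6517 to 6658 FPKM in WT and 6482 to 6778 FPKM in *alh-6*, and summed sperm markers, at a mean of 1081 FPKM in WT L4 animals, were at 4.49 to 7.15 FPKM in the 6 adult libraries. In RNA from whole worms, fewer cells of a type and less RNA per cell cannot be told apart.

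*alh-6* mRNA itself did not separate the genotypes. The gene (WBGene00000112) is on chromosome II from 1306240 to 1310133 of WBcel235, minus strand. It was at 33.7, 33.9 and 31.8 FPKM in WT replicates 1, 2 and 3 and at 34.8, 32 and 34.03 FPKM in the mutant, so the groups overlapped (log2 fold change 0.02, standard error 0.069; limma, adjusted p = 0.88). Its level therefore does not check the genotype labels. None of the other enzymes that make or use P5C passed the threshold either. *prdh-1* was at 2.31 ± 0.0231 FPKM in WT and at 2.81 ± 0.385 FPKM in *alh-6* (SD, n = 3 libraries; limma, adjusted p = 0.34). For *alh-13*, which makes P5C from glutamate, the means were 7.36 ± 0.548 and 7.998 ± 0.153 FPKM (SD, n = 3 libraries; limma, adjusted p = 0.49). *oatr-1*, the ornithine transaminase, was at 113 ± 1.16 and 107 ± 3.04 FPKM (SD, n = 3 libraries; limma, adjusted p = 0.28). The P5C reductases *pycr-1* and *pycr-4*, which return P5C to proline, had log2 fold changes of 0.15 and 0.06 and passed no threshold. None of the 6 genes of this list was called, and their median log2 fold change was 0.09, against −0.08 over all genes tested.

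Few genes changed by much between the genotypes. On the FPKM as deposited, the called rises had a larger median size than the called falls. limma on log2(FPKM + 0.1) tested 10501 genes that reached an FPKM of 1 in 3 or more of these libraries. Genes with a Benjamini-Hochberg adjusted p below 0.05 were called. By this rule 225 genes were higher in *alh-6*, or 2.14% of those tested, and 439 were lower, or 4.18%. The median log2 fold change was 0.61 over the higher genes and −0.36 over the lower genes. At 2-fold or more, 43 were higher (0.409%) and 43 lower (0.409%). The split of the calls depended on how the libraries were scaled. Dividing every library by the median of its gene ratios to the geometric mean of all 6 moved the median of all genes from −0.08 to −0.004 and gave 286 higher and 153 lower genes. Of the 225 higher genes, 210 stayed called after this rescaling and 84 stayed called in each of the 6 fits that left out 1 library. Of the 439 lower genes, 153 and 44 did. The lower calls moved most with single libraries, to 922 without *alh-6* replicate 3 and 678 without *alh-6* replicate 1, and to 100, 135, 55 and 146 without WT replicates 1, 2 and 3 and *alh-6* replicate 2. The higher calls fell to 112 and 92 without WT replicates 1 and 3, to 133 and 147 without *alh-6* replicate 2 and WT replicate 2, and reached 243 and 311 without *alh-6* replicates 1 and 3.

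**Figure D1:**
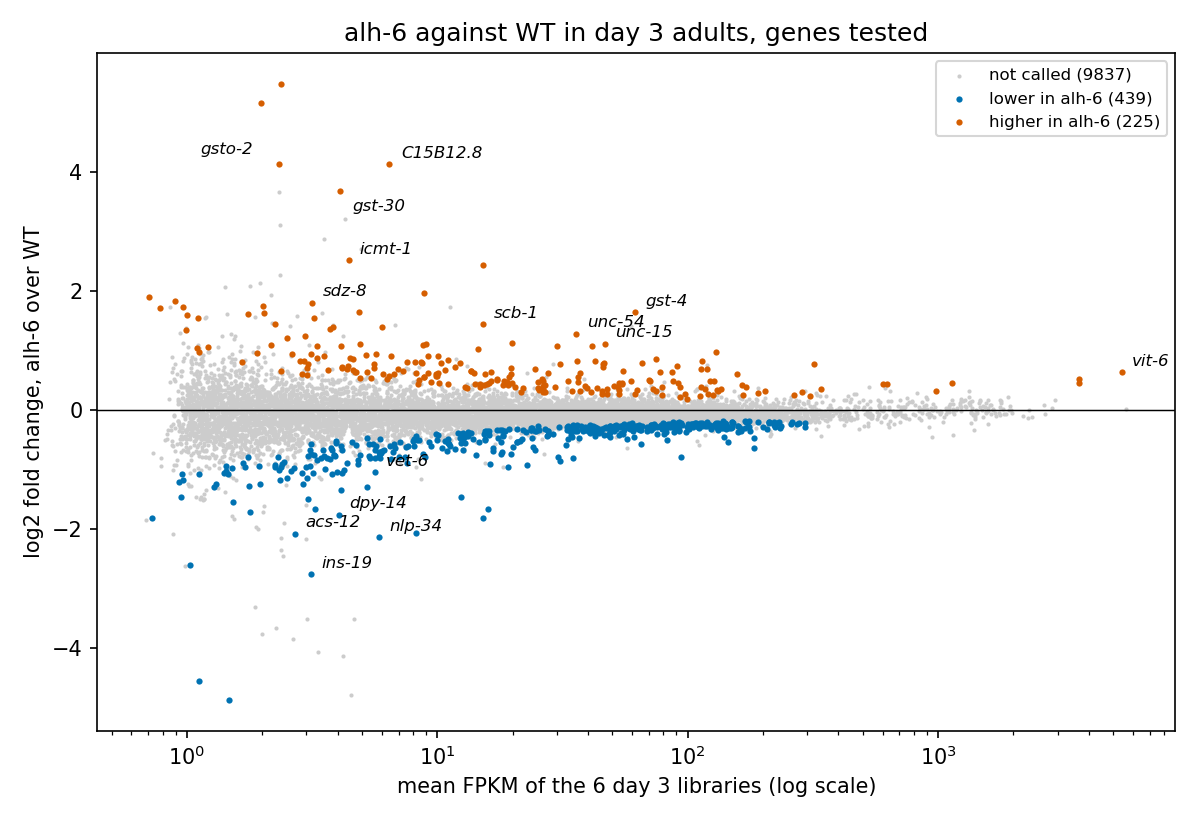
Difference between *alh-6* and WT day 3 adults as log2 fold change (vertical axis) against the mean FPKM of the 6 libraries (horizontal axis, log scale) for the 10501 genes tested; grey points are genes that were not called, coloured points the 225 higher and 439 lower genes, and names mark some of the largest changes. Most of the lower genes lie close to the line at 0, *C15B12.8*, *gsto-2* and *gst-30* stand highest of the named genes, and the called points beyond 4 on either side without a name are piRNA genes with a few reads.

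Glutathione S-transferases were among the largest rises. These enzymes join glutathione to electrophiles. Of 58 genes that encode these enzymes or make glutathione, 41 could be tested, and 8 were higher and none was lower, against 2.14% and 4.18% of all genes tested, while the median of the list was 0.06. Most members of the family were therefore not called. *gsto-2*, an omega-class transferase (WBGene00015337, chromosome III from 8554772 to 8555744), was at 0.263, 0 and 0.383 FPKM in WT, which is 5, 0 and 8 reads. In *alh-6* it was at 3.95, 4.79 and 4.61 FPKM, or 72, 89 and 87 reads (log2 fold change 4.13, standard error 0.53; limma, adjusted p = 0.0058). Every mutant library was far above every WT library, although with a pseudocount of 0.01 the gene was no longer called (limma, adjusted p = 0.106), where the WT library at 0 weighs more.

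*gst-30* (WBGene00001778, chromosome II from 4933883 to 4935054) rose from 0.698, 0.406 and 0.444 FPKM in WT to 7.56, 8.12 and 7.24 FPKM in *alh-6* (log2 fold change 3.68, standard error 0.21; limma, adjusted p = 7.9e-06). *gst-4*, the SKN-1 reporter gene (WBGene00001752, chromosome IV from 10142225 to 10143099), was far more abundant. It was at 29.1, 31.6 and 28.6 FPKM in WT and at 99.0, 86.4 and 95.0 FPKM in the mutant (log2 fold change 1.65, standard error 0.072; limma, adjusted p = 1.1e-06). The 3 values within each genotype lay close together, and *gst-4* stayed called under every alternative. Its exons share 65 bases with *dhs-12* on the same strand. *gst-35* went from 0.353 ± 0.17 to 1.44 ± 0.25 FPKM and *gst-39* from 6.95 ± 0.949 to 13.2 ± 2.64 FPKM (SD, n = 3 libraries; limma, adjusted p = 0.014 and 0.011). The family's calls ranged from 6 to 8 higher genes when 1 library was left out. Members of this family are similar in sequence, and how the authors treated reads that align to several genes is not given in the sources used here.

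SKN-1 targets were described with a list of 11 genes, of which 9 were tested. Of these, *gst-4*, *sdz-8*, *nit-1* and *gst-10* were higher and none was lower, with a median of 0.20 (2.14% of all genes tested were higher and 4.18% lower). The list did not hold *sdz-28* and *sdz-4*, also named for their dependence on SKN-1, which fell and are described with the embryo genes. *sdz-8*, first found as a zygotic transcript that depends on SKN-1, rose from 1.01, 1.79 and 1.30 FPKM in WT to 6.03, 4.51 and 4.33 FPKM in *alh-6* (log2 fold change 1.802, standard error 0.22; limma, adjusted p = 0.0016). *nit-1*, a nitrilase, rose by 0.81 (standard error 0.14) and *gst-10* by 0.40 (standard error 0.097) on the log2 scale (limma, adjusted p = 0.01 and 0.039). The other 5 members did not pass. A pair of them, chosen after their values were seen, were abundant in both genotypes. *gcs-1*, the rate-limiting enzyme of glutathione synthesis, was at 51.2 ± 0.91 FPKM in WT and at 53.5 ± 3.54 FPKM in *alh-6* (SD, n = 3 libraries; limma, adjusted p = 0.58), and *gst-7* at 230.2 ± 8.96 and 251 ± 31.9 FPKM (SD, n = 3 libraries; limma, adjusted p = 0.39). The called members of this list fell to 2 without WT replicate 3.

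Other detoxification families moved little, and their counts stand beside 2.14% higher and 4.18% lower among all genes tested. Of 38 cytochrome P450 genes tested, *cyp-14A3* (from 0.419, 0.406 and 0.469 FPKM in WT to 1.65, 1.02 and 2.01 FPKM in *alh-6*; limma, adjusted p = 0.014) and *cyp-37A1* (log2 fold change 0.38; limma, adjusted p = 0.023) were higher, and neither was called without WT replicate 1 or WT replicate 3. Of 40 UDP-glucuronosyltransferases, *ugt-66* was higher by 0.58 and *ugt-53* lower, from 13.4, 11.96 and 12.9 FPKM to 7.81, 8.23 and 8.33 FPKM (limma, adjusted p = 0.015 and 0.0052). Of 29 short-chain dehydrogenases, *dhs-2* rose from 18.7 ± 0.997 to 30.3 ± 2.93 FPKM and *dhs-27* fell from 8.29 ± 0.867 to 5.26 ± 0.25 FPKM (SD, n = 3 libraries; limma, adjusted p = 0.002 and 0.012). Among 19 superoxide dismutases, catalases and peroxiredoxins only the peroxisomal catalase *ctl-2* was called, with a log2 fold change of 0.30 (limma, adjusted p = 0.033), and it was not called without WT replicate 1, 2 or 3 or *alh-6* replicate 2, nor with all 12 libraries in 1 fit. Of 47 heat shock protein genes none was higher and *dnj-3*, *dnj-2* and *hsp-43* were lower, with log2 fold changes of −0.33, −0.30 and −0.28, and of these *dnj-2* alone stayed called after rescaling. None of the 3 was called when WT replicate 1, 2 or 3 or *alh-6* replicate 2 was left out.

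**Figure D2:**
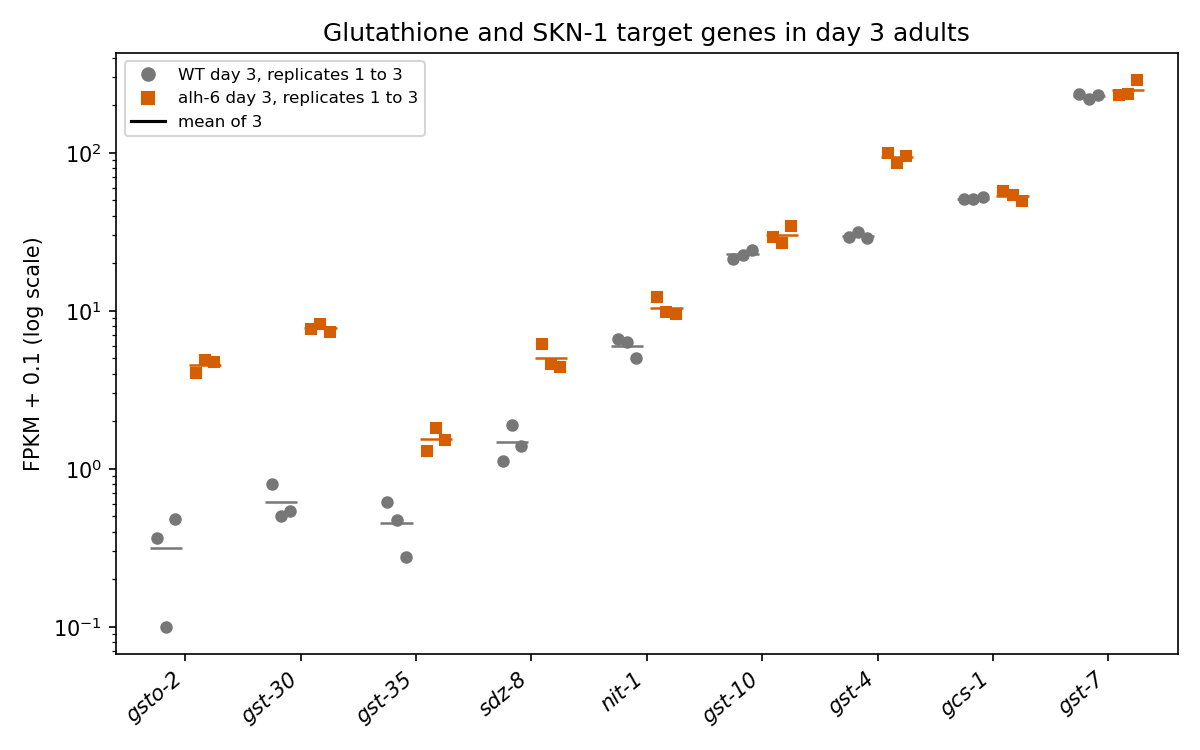
FPKM of 9 glutathione and SKN-1 target genes in each of the 6 day 3 libraries (vertical axis, log scale, with 0.1 added so that the WT library of *gsto-2* at 0 can be drawn), WT replicates in grey and *alh-6* replicates in orange. *gsto-2*, *gst-30*, *gst-35* and *sdz-8* separate the genotypes at low FPKM, *gst-4* at 28.6 to 99.0 FPKM, and the points of *gcs-1* and *gst-7* overlap.

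Outside these families the strongest rises belonged to single genes. *C15B12.8* (WBGene00015788, chromosome X from 6474264 to 6476645) was at 0.76, 0.502 and 0.565 FPKM in WT and at 12.2, 10.8 and 13.5 FPKM in *alh-6*, which is a mean of 18.3 reads against 344 reads (log2 fold change 4.12, standard error 0.18; limma, adjusted p = 1.1e-06). This rise was as large as that of *gsto-2* and far better counted. *icmt-1*, which carries the name of the isoprenylcysteine carboxyl methyltransferases that finish prenylated proteins, was at 0.993, 1.54 and 1.13 FPKM in WT and at 6.32, 5.63 and 11.1 FPKM in the mutant (log2 fold change 2.52, standard error 0.26; limma, adjusted p = 0.0007). *alh-6* replicate 3 was the highest library, and all 3 mutant libraries lay above all WT libraries.

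*F56D6.9* and *dct-8* lie next to each other on chromosome IV, from 3892327 to 3893326 and from 3895070 to 3895506. *F56D6.9* was at 5.31, 4.12 and 3.70 FPKM in WT and at 16.4, 19.9 and 41.6 FPKM in *alh-6*, and *dct-8*, a gene found downstream of DAF-16, was at 3.55, 3.61 and 3.08 and 9.88, 12.4 and 20.3 FPKM. In both, *alh-6* replicate 3 was the highest library by far. *dct-8* (log2 fold change 1.96, standard error 0.24; limma, adjusted p = 0.0047) stayed called without any 1 library, whereas *F56D6.9* (log2 fold change 2.44, standard error 0.39; limma, adjusted p = 0.032) was called in 2 of those 6 fits and shares 237 exon bases with *oac-21* on the same strand. *C08E8.10* rose from 2.34 ± 0.676 to 7.42 ± 1.51 FPKM (SD, n = 3 libraries; log2 fold change 1.64; limma, adjusted p = 0.0025).

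Several further risers stood outside the rule for named genes and were chosen after their values were seen. *scb-1*, named for its part in sensitivity to bleomycin, was at 8.83, 7.88 and 7.64 FPKM in WT and at 21.9, 20.4 and 24.6 FPKM in *alh-6* (log2 fold change 1.44, standard error 0.10; limma, adjusted p = 4.9e-05). *shk-1*, a Shaker-type potassium channel of nerve and muscle, rose from 0.931 ± 0.0582 to 3.12 ± 0.428 FPKM, and *swt-3*, a sugar transporter of the SWEET family, from 3.33 ± 0.826 to 8.71 ± 0.62 FPKM (SD, n = 3 libraries; limma, adjusted p = 0.0014 and 0.0016). The fatty acid and retinol binding proteins *far-3* and *far-6* rose from 82.3 ± 0.943 to 145 ± 16.4 FPKM and from 34.6 ± 2.38 to 56.8 ± 1.57 FPKM (SD, n = 3 libraries; limma, adjusted p = 0.00016 and 0.00032). All 5 genes stayed called when any 1 library was left out.

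Many genes of the contractile apparatus rose. In worm body wall muscle, thick filaments of myosin and paramyosin slide along thin filaments of actin, tropomyosin and troponin that are anchored at dense bodies. Of 14 thick filament genes tested, 7 were higher and none was lower, against 2.14% and 4.18% of all genes tested, and the median was 0.74 against −0.08 over all genes tested. *unc-54*, the major myosin heavy chain of body wall muscle (WBGene00006789, chromosome I from 14855901 to 14863482), was at 22.2, 24.8 and 16.2 FPKM in WT and at 52.2, 47.8 and 51.8 FPKM in *alh-6* (log2 fold change 1.28, standard error 0.14; limma, adjusted p = 0.0025). *unc-15*, paramyosin (WBGene00006754, chromosome I from 7376604 to 7383197), was at 29.9, 32.8 and 25.9 FPKM in WT and at 66.1, 59.8 and 65.1 FPKM in the mutant (log2 fold change 1.11, standard error 0.089; limma, adjusted p = 8e-05). For both genes WT replicate 3 was the lowest library, and every mutant library lay above every WT library.

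The light chain *mlc-3* rose from 48.1 ± 4.79 to 83.7 ± 13.04 FPKM and *mlc-2*, which is nearly identical to *mlc-1*, from 86.1 ± 4.86 to 140.1 ± 19.8 FPKM (SD, n = 3 libraries; limma, adjusted p = 0.0062 and 0.0041). *myo-3*, the other body wall myosin heavy chain, was at 3.60, 3.97 and 3.06 FPKM in WT and at 5.65, 5.99 and 5.29 FPKM in *alh-6* (log2 fold change 0.66; limma, adjusted p = 0.022). *unc-22*, the giant protein twitchin, was called at a log2 fold change of 0.96 (limma, adjusted p = 0.047) but in none of the fits without 1 library. The pharyngeal myosins *myo-1* and *myo-2*, at or under 1.74 FPKM, had log2 fold changes of 0.84 and 1.08 and did not pass (limma, adjusted p = 0.065 and 0.054). Whether the pharyngeal and body wall myosins differed in their change was not tested. Leaving out 1 library gave 5 or 6 thick filament calls.

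Thin filament genes divided. Of 25 tested, 9 were higher and 1 lower, against 2.14% and 4.18% of all genes tested, and the median was 0.07. The troponin T gene *tnt-2* rose from 28.7, 29.9 and 21.95 FPKM to 55.002, 54.02 and 59.6 FPKM, and *unc-27*, the body wall troponin I, from 99.4, 97.3 and 78.6 FPKM to 137, 141.96 and 164 FPKM (log2 fold change 1.07 and 0.69; limma, adjusted p = 0.00065 and 0.0072). *unc-87*, a calponin-related protein of the thin filament, rose by 0.81 (standard error 0.093) and the muscle actin *act-4* by 0.60 (standard error 0.06) on the log2 scale (limma, adjusted p = 0.00098 and 0.00039). Actin genes are near-identical copies, so the share of each is uncertain. *tnt-4*, at under 2 FPKM, had a log2 fold change of 1.04 (limma, adjusted p = 0.032) and was called in 1 of the 6 fits without 1 library, and *cpn-4* was the member that fell, from 27.8 ± 2.73 to 19.98 ± 2.16 FPKM (SD, n = 3 libraries; limma, adjusted p = 0.023), a call that rescaling removed (limma, adjusted p = 0.0638). The non-called *tni-4* was at 16.2 ± 0.409 and 14.6 ± 1.24 FPKM (SD, n = 3).

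Attachment genes were higher where they were called. Of 20 tested, 5 were higher and none lower, against 2.14% and 4.18% of all genes tested, with a median of 0.25. *let-2* and *emb-9*, the chains of the type IV collagen that muscle lays into the basement membrane, rose from 23.3, 26.7 and 18.8 FPKM to 36.7, 36.8 and 43.6 FPKM and from 15.2, 16.3 and 13.5 FPKM to 23.6, 24.1 and 25.8 FPKM (log2 fold change 0.77 and 0.71; limma, adjusted p = 0.0088 and 0.0021). *dim-1*, *unc-95* and the zyxin gene *zyx-1*, all proteins of muscle attachment, rose by 0.61, 0.59 and 0.42. Without WT replicate 1, WT replicate 3 or *alh-6* replicate 2 the count was 3. *csq-1*, the calsequestrin that stores calcium in muscle, rose from 15.6 ± 1.45 to 23.8 ± 1.47 FPKM (SD, n = 3 libraries; limma, adjusted p = 0.0058), the only call among 9 calcium and excitation genes. Outside the lists, and chosen after its values were seen, *ketn-1*, a kettin of the thin filament, was at 1.90, 2.12 and 1.21 FPKM in WT and at 4.59, 3.80 and 4.08 FPKM in *alh-6* (log2 fold change 1.24; limma, adjusted p = 0.0088).

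The body wall muscle markers *unc-54*, *myo-3*, *unc-15*, *mlc-3* and *unc-27* summed to 167 to 211 FPKM in WT and 331 to 385 FPKM in *alh-6*, and all 5 were called. The same markers summed to a mean of 3017 FPKM in WT L4 animals, so both adult groups were far below the larval level. Sums of the 5 pharynx markers ran from 19.03 to 20.1 FPKM in WT libraries and from 17.7 to 20.6 FPKM in mutant libraries. None of the 4 tested was called, and their median log2 fold change was 0.41, against −0.08 over all genes tested. A sum follows its most abundant members, so it does not show that each pharynx marker was unchanged. Intestine markers summed to 570 to 648 and 674 to 679 FPKM, adult epidermis markers to 147 to 157 and 145 to 186 FPKM, and coelomocyte markers to 3.08 to 3.77 and 4.75 to 4.86 FPKM, with no call in any of these lists. The part of tissue composition in the rise of muscle genes was not tested.

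**Figure D3:**
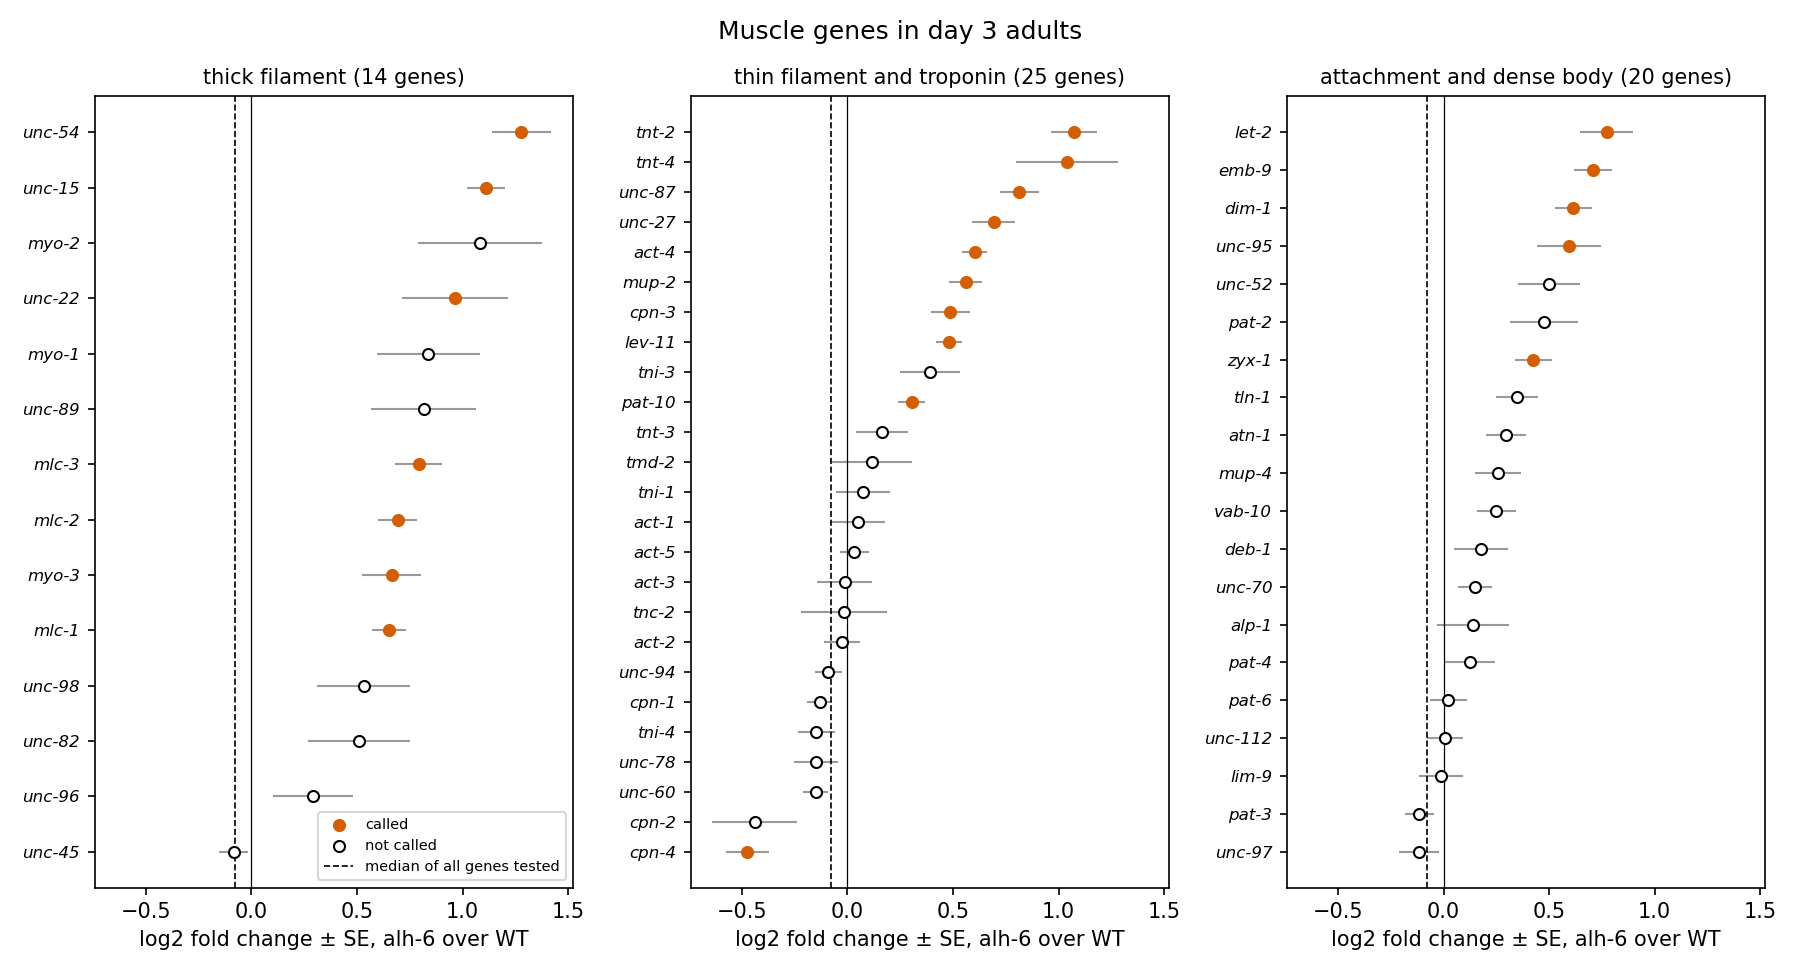
Difference between *alh-6* and WT day 3 adults as log2 fold change (horizontal axis, bars are the limma standard error, n = 3 libraries a genotype) for every tested gene of the thick filament, thin filament and attachment lists, with called genes filled and others open. The dashed line is the median of all genes tested at −0.08; thick filament genes lie to its right except for *unc-45*, which lies on it, and thin filament genes fall on both sides.

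Numbered cuticle collagens were higher where they were called. Of 56 *col* genes tested, 8 were higher and none lower, against 2.14% and 4.18% of all genes tested, with a median of 0.22. *col-160* rose from 90.9, 94.1 and 75.4 FPKM in WT to 149, 161 and 204 FPKM in *alh-6* and *col-80* from 238, 257 and 209 FPKM to 344, 391 and 479 FPKM (log2 fold change 0.97 and 0.78; limma, adjusted p = 0.012 and 0.015). In both, *alh-6* replicate 3 was the highest library and the groups did not overlap. *col-142*, *col-94* and *col-159* rose by 0.90, 0.80 and 0.64. The count was 3 without WT replicate 1 or WT replicate 3, 4 without *alh-6* replicate 2 and 17 without *alh-6* replicate 1. *col-19*, the adult-specific collagen among the epidermis markers, was at 87.7 ± 7.10 FPKM in WT and at 102 ± 20.8 FPKM in *alh-6* (SD, n = 3), and its groups overlapped.

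Collagens named for a body shape phenotype, and other genes of the cuticle and of molting, gave few calls, all of them lower. For comparison, 4.18% of all genes tested were lower, with a median of −0.08. The list medians were −0.07 for named collagens, −0.02 for molting and apical matrix, −0.05 for hedgehog-related genes and −0.23 for cuticlins. No call was made among 13 patched-related genes, 9 astacin metalloproteases and 7 genes of prolyl hydroxylation and collagen folding. *dpy-14*, a collagen whose loss shortens the animal (WBGene00001075, chromosome I from 6843589 to 6845142), fell from 6.58, 5.69 and 6.62 FPKM in WT to 2.11, 1.63 and 1.66 FPKM in *alh-6* (log2 fold change −1.76, standard error 0.16; limma, adjusted p = 0.00016), and stayed called in every fit without 1 library. *sqt-3*, another collagen of this kind, fell from 8.36 ± 1.16 to 4.72 ± 1.09 FPKM (SD, n = 3 libraries; limma, adjusted p = 0.018), a call that rescaling removed (limma, adjusted p = 0.0612). They were the 2 calls among 8 collagens with named phenotypes. *noah-1*, a component of the apical matrix, *wrt-10* of the hedgehog-related family and the cuticlin *cut-2* were each the only call of their lists of 31, 10 and 5 tested genes, with log2 fold changes of −1.02, −1.22 and −1.07 at or below 2.34 FPKM in every library. Rescaling removed the calls of *wrt-10* and *cut-2* (limma, adjusted p = 0.0505 and 0.0627). Summed larval cuticle and molt markers were at 14.4 to 15.5 FPKM in WT and 10.7 to 12.5 FPKM in *alh-6*. Each of the calls of *noah-1*, *wrt-10* and *cut-2* was lost without WT replicate 1, 2 or 3.

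More neuropeptide genes were called higher than lower. Of 71 *flp* and *nlp* genes tested, 6 were higher and 2 lower, against 2.14% and 4.18% of all genes tested, and the median was 0.21. *flp-3*, an FMRFamide-like peptide gene, was at 1.17, 0.533 and 0.999 FPKM in WT and at 3.22, 3.44 and 2.70 FPKM in *alh-6* (log2 fold change 1.74, standard error 0.27; limma, adjusted p = 0.0059). *flp-14*, *flp-8*, *flp-1*, *nlp-14* and *nlp-49* were higher by 0.93, 0.81, 0.69, 0.64 and 0.60. Their 6 libraries separated by genotype, as did those of 3446 of the 10501 genes tested. The 2 lower members, *nlp-34* and *nlp-29*, encode epidermal antimicrobial peptides and are described with those. *egl-3*, the proprotein convertase, went from 7.05, 8.16 and 6.53 FPKM to 11.5, 10.3 and 11.6 FPKM, and its chaperone *sbt-1* from 7.62, 7.26 and 9.94 FPKM to 13.6, 11.4 and 14.8 FPKM (log2 fold change 0.62 and 0.68; limma, adjusted p = 0.012 and 0.02). *ida-1*, a dense core vesicle protein, had a log2 fold change of 0.65 (limma, adjusted p = 0.049). These 3 were the calls among 12 tested genes of neuronal vesicles and secretion, whose median was 0.08. Outside the lists and chosen after their values were seen, *pgal-1* and *pghm-1*, which carry out the amidation of peptides, were higher by 0.71 and 0.69 (limma, adjusted p = 0.015 and 0.034).

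Most of these neuronal calls depended on single libraries. *flp-3* was called in all 6 fits without 1 library, and *flp-8* and *ida-1* in none. The higher neuropeptide genes numbered 3 without WT replicate 1, 1 without WT replicate 2, 1 without WT replicate 3, 2 without *alh-6* replicate 2, 7 without *alh-6* replicate 1 and 5 without *alh-6* replicate 3. The vesicle genes numbered 0 without WT replicate 1 and 1 without WT replicate 2 or WT replicate 3. The synaptic vesicle marker *rab-3* was at 2.53 ± 0.371 FPKM in WT and at 1.96 ± 0.226 FPKM in *alh-6* (SD, n = 3 libraries; limma, adjusted p = 0.26). The 9 neuron markers summed to 299 to 317 FPKM in WT and 273 to 309 FPKM in *alh-6*, where members at a few FPKM weigh little. *egl-3* and *sbt-1* were the 2 called of the 5 tested, whose median log2 fold change was 0.27, against −0.08 over all genes tested.

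Yolk transcripts were among the most abundant in both genotypes and were higher in the mutant. The 6 vitellogenin genes, which encode the lipoproteins that the intestine delivers to oocytes, took 4.85% to 6.21% of reads on genes in WT and 7.81% to 7.93% in *alh-6*. *vit-6* was at 4326, 4825 and 3638 FPKM in WT and at 6617, 6449 and 6663 FPKM in *alh-6* (log2 fold change 0.63, standard error 0.13; limma, adjusted p = 0.018). *vit-2*, *vit-4*, *vit-5* and *vit-3* were also called, with log2 fold changes of 0.51, 0.45, 0.45 and 0.32, and *vit-1* was not (0.23; limma, adjusted p = 0.15). WT replicate 3 was the lowest library for all of them. Of the 5, only *vit-4* passed after rescaling, none passed without WT replicate 1, WT replicate 3 or *alh-6* replicate 2, and 2 passed without WT replicate 2. *vit-3*, *vit-4* and *vit-5* are close copies of each other, so the share of each is uncertain.

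Single enzymes of central metabolism were higher. The counts below stand beside 2.14% higher and 4.18% lower among all genes tested. *icl-1*, the isocitrate lyase and malate synthase that lets worms make sugar from fat (WBGene00001564, chromosome V from 724332 to 728004), was at 69.9, 71.0 and 61.9 FPKM in WT and at 99.8, 106 and 110.4 FPKM in *alh-6* (log2 fold change 0.64, standard error 0.068; limma, adjusted p = 0.00063). *pck-1*, the phosphoenolpyruvate carboxykinase, rose from 30.7, 34.2 and 27.2 FPKM to 40.2, 41.5 and 45.03 FPKM (log2 fold change 0.46; limma, adjusted p = 0.015). They were the 2 calls among 30 genes of the TCA cycle list, whose median was −0.01. *pck-1* was not called without WT replicate 1 or WT replicate 3. In glycolysis, 4 of 19 genes were higher and none lower, while the median was −0.03 and 11 of the 19 values were below 0. The aldolase *aldo-1* rose from 7.99, 11.8 and 9.06 FPKM to 17.5, 19.1 and 21.7 FPKM, and the lactate dehydrogenase *ldh-1* from 47.1, 45.4 and 47.5 FPKM to 60.5, 64.0 and 63.9 FPKM (log2 fold change 1.02 and 0.43; limma, adjusted p = 0.0043 and 0.0037). The glyceraldehyde-3-phosphate dehydrogenases *gpd-2* and *gpd-3*, which are near-identical, rose by 0.39 and 0.38, and 2 glycolysis genes were called without WT replicate 3. Among 26 peroxisomal beta-oxidation genes, *acox-1.4* and *acox-3* were higher and *acox-1.5* lower, with log2 fold changes of 0.49, 0.38 and −0.51, beside *ctl-2*. *acox-3* was called in none of the 6 fits without 1 library, *acox-1.4* was lost without WT replicate 3, and *acox-1.5* was lost without WT replicate 1, WT replicate 3 or *alh-6* replicate 2 and after rescaling (limma, adjusted p = 0.057). The higher genes of the list numbered 0 without WT replicate 3. *pod-2*, the acetyl-CoA carboxylase, was higher by 0.32 (limma, adjusted p = 0.022).

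**Figure D4:**
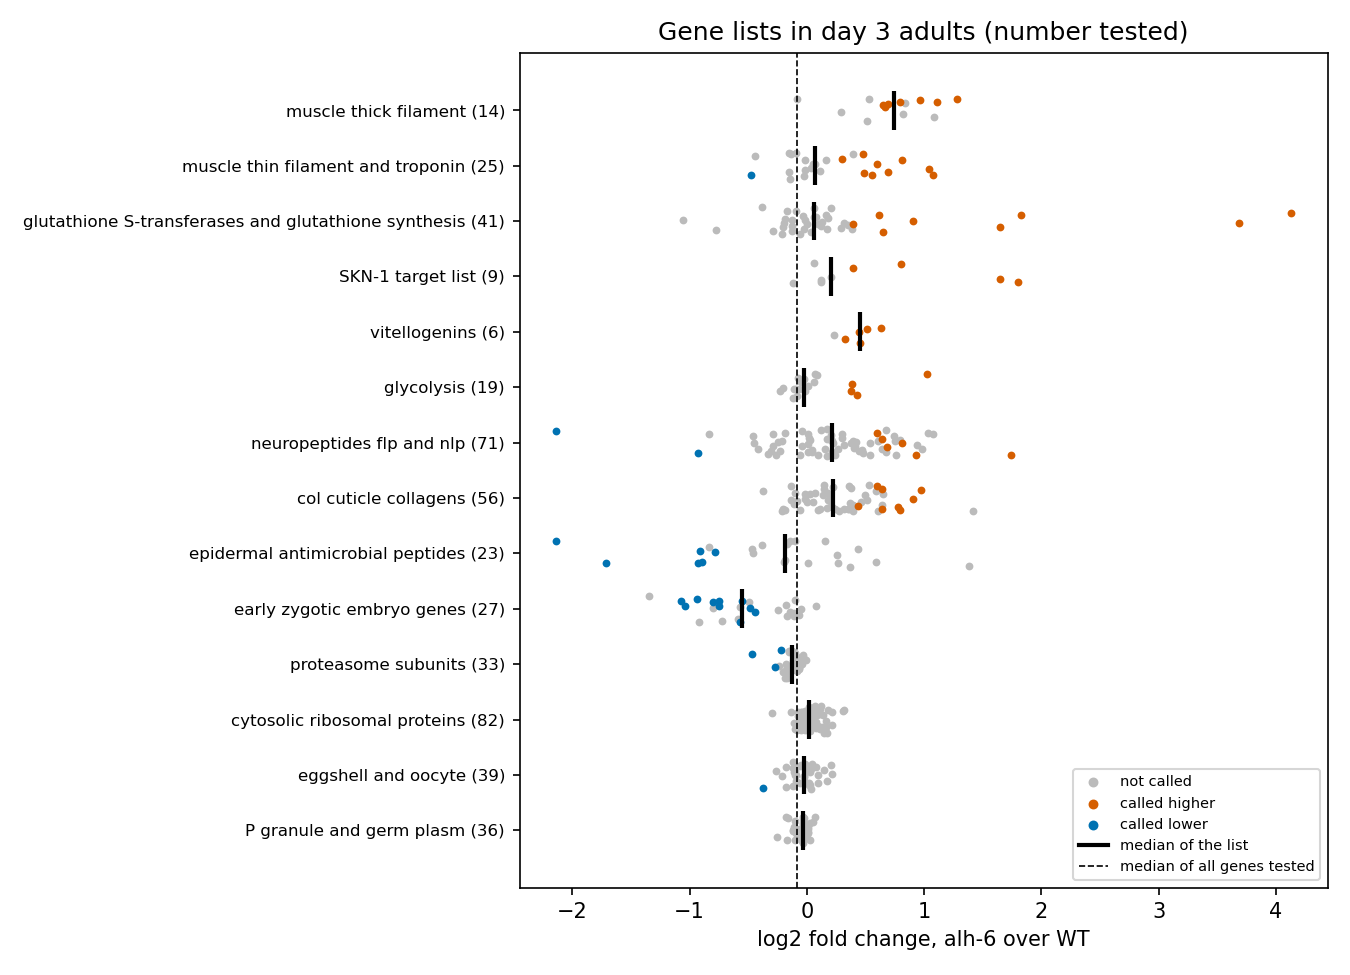
Difference between *alh-6* and WT day 3 adults as log2 fold change (horizontal axis) for the tested genes of 14 lists (rows, with the number tested), each point a gene and each black bar the median of its list; called genes are orange (higher) or blue (lower). The dashed line marks −0.08, the median of all genes tested; thick filament genes and vitellogenins sit to its right, genes of the early embryo to its left, and ribosomal, proteasome, oocyte and germ plasm genes around it.

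The largest falls were scattered over functions. *acs-12*, an acyl-CoA synthetase (WBGene00009106, chromosome V from 20904169 to 20907433), was at 3.94, 4.67 and 4.67 FPKM in WT and at 1.12, 0.871 and 0.935 FPKM in *alh-6* (log2 fold change −2.07, standard error 0.18; limma, adjusted p = 0.00016). It was the only call among 31 acyl-CoA synthetases and carnitine transferases and stayed called without any 1 library. *ins-19*, an insulin-like peptide gene, fell from 6.66, 5.17 and 4.48 FPKM to 0.417, 0.544 and 1.48 FPKM (log2 fold change −2.76, standard error 0.39; limma, adjusted p = 0.0079). The groups did not overlap, and *alh-6* replicate 3 was the mutant library nearest to WT. *ZK742.4*, under the FPKM floor of the rule and chosen after its values were seen, was at 2.15, 1.95 and 1.36 FPKM in WT and at 0.29, 0.0709 and 0.35 FPKM in *alh-6* (log2 fold change −2.60, standard error 0.40; limma, adjusted p = 0.0058). *srlf-34*, *T19C9.8*, *Y110A2AL.9* and *pud-3* fell by 1.66, 1.34, 1.29 and 1.45 on the log2 scale, and *pud-3* was called in 2 of the 6 fits without 1 library. The annotated pseudogenes WBGene00014954 and WBGene00014955 are neighbours on chromosome V, from 16928328 to 16928999 and from 16929167 to 16930063. They were at 25.4, 23.8 and 23.7 FPKM and 23.2, 24.4 and 23.9 FPKM in WT, and at 6.55, 9.18 and 7.30 FPKM and 5.97, 6.68 and 7.53 FPKM in *alh-6* (limma, adjusted p = 5.2e-05 and 7.9e-06).

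Some identifiers with large fold changes rested on a few reads. The piRNA genes *21ur-10387* and *21ur-7832* had no read in WT and 1, 2 and 3 or 1, 1 and 3 reads in *alh-6*. *21ur-3110* had 4, 6 and 8 reads in WT and 1, 1 and 2 in the mutant. *21ur-719* and *21ur-14951*, named after their values were seen, had 1, 1 and 2 or 1, 1 and 1 reads in WT and none in *alh-6*. Their FPKM reach several units because the genes are 21 bases long. Of all called genes, 9 had a mean under 10 reads, and all 9 were among those called at 2-fold.

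Enzymes of amino acid and polyamine metabolism, chosen after their values were seen, included well-measured falls. *smd-1*, the S-adenosylmethionine decarboxylase of polyamine synthesis, fell from 23.8, 29.0 and 22.9 FPKM in WT to 12.03, 11.1 and 15.9 FPKM in *alh-6* (log2 fold change −0.96, standard error 0.14; limma, adjusted p = 0.0058). *qdpr-1*, the dihydropteridine reductase that recycles the cofactor of phenylalanine hydroxylase, fell from 37.7, 41.1 and 40.7 FPKM to 21.2, 22.4 and 22.6 FPKM (log2 fold change −0.85, standard error 0.071; limma, adjusted p = 0.00011). *pah-1*, that hydroxylase, went the other way, from 14.6, 12.1 and 13.4 FPKM to 17.6, 18.5 and 18.1 FPKM (log2 fold change 0.44; limma, adjusted p = 0.021). In the fits without 1 library, *smd-1* and *qdpr-1* were called in all 6 and *pah-1* in 3.

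Genes first transcribed in the embryo were lower. A hermaphrodite carries embryos in its uterus, so their transcripts are part of whole worm RNA. Of 27 tested genes of this list, 10 were lower and none higher, against 4.18% of all genes tested, and 26 of the 27 log2 fold changes were below 0, with a median of −0.55. *vet-6*, a very early transcript of the embryo, was at 7.41, 7.20 and 8.16 FPKM in WT and at 3.84, 3.02 and 4.13 FPKM in *alh-6* (log2 fold change −1.04, standard error 0.14; limma, adjusted p = 0.0034). *tbx-37* and *tbx-38*, T-box factors that specify pharyngeal fate in the embryo and are close copies, fell from 3.79, 4.13 and 4.35 FPKM to 2.52, 2.03 and 1.76 FPKM and from 7.17, 5.37 and 8.08 FPKM to 4.37, 3.09 and 4.22 FPKM (log2 fold change −0.94 and −0.80; limma, adjusted p = 0.012 and 0.03). *sdz-28* and *sdz-4*, named as zygotic transcripts that depend on SKN-1 like *sdz-8*, fell, with log2 fold changes of −0.75 and −1.07, against 1.802 for *sdz-8*. The list of embryo genes did not hold *sdz-8*, which was placed with the SKN-1 targets. That none of the embryo genes was higher thus depends on how these genes were divided. *sdz-4* was called in none of the fits without 1 library, and rescaling removed its call and that of *tbx-38* (limma, adjusted p = 0.0578 and 0.0578).

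After rescaling 5 of the 27 were lower and the median was −0.47. Single libraries decided many of these calls, with 2 without WT replicate 1, 7 without WT replicate 2, 1 without WT replicate 3, 3 without *alh-6* replicate 2, 7 without *alh-6* replicate 1 and 11 without *alh-6* replicate 3, while the median stayed between −0.58 and −0.48. The 11 matched embryo markers summed to 17.04 to 19.5 FPKM in WT and 10.3 to 11.9 FPKM in *alh-6*, and *med-1*, *med-2* and *tbx-35*, which mark the earliest endoderm and mesoderm, were at 0 in all 6 libraries. *pes-10*, the standard marker of early zygotic transcription, was at 3.22, 4.07 and 4.34 FPKM in WT and at 2.54, 2.98 and 2.15 FPKM in *alh-6*. It did not pass (limma, adjusted p = 0.076). Its groups did not overlap, which was so for 3446 of the 10501 genes tested. None of the 8 oocyte markers was called.

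Transcription factors and other genes that act in embryos, chosen after their values were seen, fell alongside. *ceh-43*, *tbx-11* and *aptf-4* went from 7.52 ± 0.439 to 4.29 ± 0.68 FPKM, from 6.17 ± 0.906 to 3.42 ± 0.569 FPKM and from 7.23 ± 1.11 to 4.05 ± 0.339 FPKM (SD, n = 3 libraries; limma, adjusted p = 0.0088, 0.017 and 0.011). *epg-2* and *sepa-1*, which deliver P granule remnants to autophagy in embryonic somatic cells, fell from 22.2, 20.9 and 24.2 FPKM to 12.8, 14.1 and 14.5 FPKM and from 12.6, 11.8 and 15.2 FPKM to 8.85, 8.99 and 8.96 FPKM (log2 fold change −0.70 and −0.55; limma, adjusted p = 0.0021 and 0.017). The number of embryos in the uterus of each genotype is not in these data, and its part in these values was not tested.

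**Figure D5:**
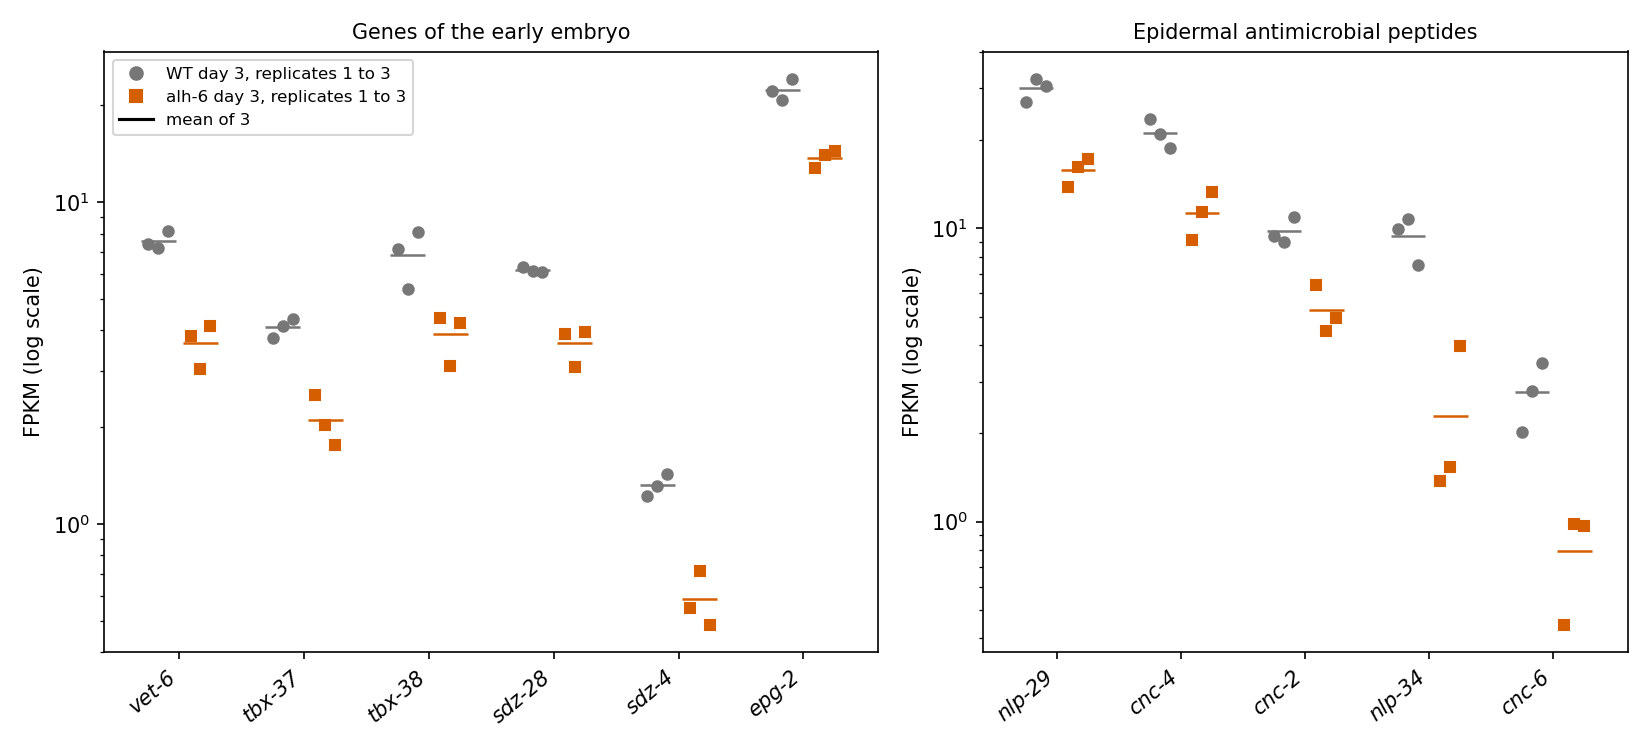
FPKM in each of the 6 day 3 libraries (vertical axis, log scale; WT replicates in grey, *alh-6* replicates in orange) for genes of the early embryo on the left and of epidermal antimicrobial peptides on the right. Every gene drawn was called lower, and in each the 3 *alh-6* points lie below the 3 WT points.

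Epidermal antimicrobial peptide genes were lower where they were called. These small peptides are induced in the skin by fungal infection and wounding. Of 23 tested, 6 were lower and none higher, against 4.18% and 2.14% of all genes tested, with a median of −0.19. *nlp-29*, the best known of them, was at 26.97, 32.3 and 30.7 FPKM in WT and at 13.9, 16.2 and 17.3 FPKM in *alh-6* (log2 fold change −0.93, standard error 0.10; limma, adjusted p = 0.00077). The caenacins *cnc-4* and *cnc-2* fell from 23.6, 20.9 and 18.8 FPKM to 9.12, 11.4 and 13.3 FPKM and from 9.42, 9.003 and 10.9 FPKM to 6.41, 4.47 and 4.96 FPKM (log2 fold change −0.91 and −0.89; limma, adjusted p = 0.0058 and 0.0075), and *cnc-6*, at under 4 FPKM, by 1.71 on the log2 scale. *nlp-34* had the largest change of the list, from 9.97, 10.8 and 7.52 FPKM to 1.37, 1.54 and 3.98 FPKM (log2 fold change −2.13; limma, adjusted p = 0.038), but it was called in 1 of the 6 fits without 1 library and not after rescaling. The count was 4 without WT replicate 1 and 3 without WT replicate 2 or WT replicate 3.

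Other immune genes went both ways, beside 2.14% higher and 4.18% lower among all genes tested. Among 11 lysozymes, *lys-1* and *lys-2* were higher, by 0.32 and 0.33. *lys-4* fell from 234.8, 202 and 236 FPKM to 138, 146 and 148 FPKM (log2 fold change −0.63, standard error 0.066; limma, adjusted p = 0.00054), and *lys-10* from 2.29 ± 0.59 to 0.747 ± 0.329 FPKM (SD, n = 3 libraries; limma, adjusted p = 0.022). Of 59 C-type lectins, *clec-145*, *clec-190* and *clec-1* were higher and *clec-222* and *clec-62* lower. *clec-222* was the firmest, at 42.1, 45.8 and 45.5 FPKM in WT and at 25.7, 24.9 and 25.7 FPKM in *alh-6* (limma, adjusted p = 0.00011), and *clec-145*, which shares 226 exon bases with a gene on the other strand, was the largest, with a log2 fold change of 1.39 (limma, adjusted p = 0.0058). Among 47 saposin-like and other intestinal effectors, 4 were higher and 4 lower. *dod-6*, a gene downstream of DAF-16, rose from 19.5, 18.8 and 19.1 FPKM to 38.6, 45.2 and 38.2 FPKM (log2 fold change 1.08, standard error 0.081; limma, adjusted p = 6.1e-05). The saposin-like gene *spp-3* fell from 162, 159 and 162 FPKM to 118, 119 and 116 FPKM (log2 fold change −0.45; limma, adjusted p = 0.00051). *spp-18*, *spp-25* and *dod-23* were lower, with log2 fold changes of −0.79, −0.78 and −0.54. Without WT replicate 1, 2 or 3 the higher effectors numbered 2 and the lower lectins 1, and the lower lectins numbered 5 and 7 without *alh-6* replicates 1 and 3. The lower lysozymes numbered 1 without WT replicate 1, WT replicate 3 or *alh-6* replicate 2 and 4 without *alh-6* replicate 3, and the higher ones numbered 1 in every such fit but that without *alh-6* replicate 3.

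Genes of protein synthesis, protein turnover and respiration gave calls only in the lower direction, most of which were not called after rescaling. Over all genes tested the median log2 fold change was −0.08, 7163 of 10501 values were below 0 and 4.18% were called lower. All 33 proteasome subunit genes had log2 fold changes below 0, with a median of −0.13, and 3 were called, the largest at −0.46 for *rpn-6.2*. After rescaling none of them was called and their median was −0.05. Of 68 mitochondrial ribosomal proteins 5 were lower, with a median of −0.14, and 2 were lower after rescaling. *mrps-23* was the firmest, at 42.6, 45.2 and 40.9 FPKM in WT and at 29.4, 30.1 and 33.2 FPKM in *alh-6* (log2 fold change −0.47, standard error 0.074; limma, adjusted p = 0.0061). Nuclear-encoded subunits of the respiratory chain and ATP synthase gave 4 lower genes of 68, none after rescaling, with a median of −0.07. The 12 tested protein-coding genes of the mitochondrial DNA had log2 fold changes from −0.45 to 0.07 with a median of −0.37, and none was called. Some of them, such as *COX3* and *ND1*, were called in 1 of the fits without 1 library. In both, *alh-6* replicate 1 lay within the range of the WT libraries. Cytosolic ribosomal proteins had a median of 0.02 over 82 genes and no call. The counts of the nuclear-encoded lists turned on *alh-6* replicate 3. Without it 13 proteasome, 15 mitochondrial ribosomal, 21 respiratory chain and 10 cytosolic ribosomal protein genes were lower. Without WT replicate 1, WT replicate 3 or *alh-6* replicate 2, 0 proteasome and 0 respiratory chain genes were.

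Germ line and oocyte genes gave few calls. At the shares of all genes tested, 2.14% higher and 4.18% lower, lists of this size would also hold few. Of 39 eggshell and oocyte genes only the caveolin *cav-1* was called, at 111, 104 and 119 FPKM in WT and at 75.8, 91.0 and 90.3 FPKM in *alh-6* (log2 fold change −0.37; limma, adjusted p = 0.022), and that call was lost after rescaling (limma, adjusted p = 0.0931). Their median was −0.03. Of 36 P granule and germ plasm genes and 31 genes of the meiotic axis and synapsis none was called, with medians of −0.04 and −0.09. The P granule helicase *glh-1* was at 225 ± 4.31 FPKM in WT and at 213 ± 5.07 FPKM in *alh-6*, and the yolk receptor *rme-2* at 631 ± 9.29 and 639.6 ± 38.8 FPKM (SD, n = 3 libraries; limma, adjusted p = 0.31 and 0.89). Most sperm genes were too low to test. Of 31 major sperm protein genes 1 was tested, of 77 other sperm genes 16 were tested, and none was called. Of 16 Argonaute genes tested 1 was called, *wago-4*, at 55.1, 57.4 and 54.2 FPKM in WT and at 68.7, 72.8 and 69.7 FPKM in the mutant (log2 fold change 0.34, standard error 0.058; limma, adjusted p = 0.0088).

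Among regulators, *skn-1* mRNA was at 96.3 ± 1.37 FPKM in WT and at 99.9 ± 1.76 FPKM in *alh-6* (SD, n = 3 libraries; limma, adjusted p = 0.52), a value chosen after it was seen. Of 117 nuclear hormone receptors tested none was higher, and *nhr-17*, *nhr-114* and *sex-1* were lower, with log2 fold changes of −0.44, −0.39 and −0.31. That share was below the 4.18% of all genes tested. Rescaling removed all 3 calls, and none was made without WT replicate 1, 2 or 3 or *alh-6* replicate 2. Of 88 F-box genes, *fbxb-83*, *fbxb-17* and *fbxb-7* were lower, with log2 fold changes of −1.07, −1.06 and −0.49, and *fbxb-7* alone stayed called after rescaling. That share, too, was below 4.18%, and the count was 0 without WT replicate 1 or WT replicate 3, 1 without WT replicate 2 or *alh-6* replicate 2 and 7 without *alh-6* replicate 1.

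The share of higher genes ranged from 1.09% to 3.08% over the nuclear chromosomes. Chromosome V had 57 higher genes of 1850 tested (3.08%), chromosome X 36 of 1411 (2.55%) and chromosome I 20 of 1838 (1.09%). Lower genes ranged from 3.26% on X to 5.04% on IV. Within 1 Mb of *alh-6* on chromosome II, 158 genes were tested, 2 were higher and 9 lower, which is 6.96% called against 6.32% of all genes tested.

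Whether these effects were particular to adults was tested in all 12 libraries over 14497 genes, with an interaction between genotype and stage in limma. The genotype effect was more positive in day 3 adults than at L4 for 488 genes (3.37%) and more negative for 582 (4.01%). The strong rises of *gst-30* and *gst-4* were among the former. *gst-30* was at 1.09 ± 0.514 FPKM in WT and at 0.918 ± 0.34 FPKM in *alh-6* L4 animals (SD, n = 3), and its effect differed between the stages by 3.88 on the log2 scale (limma, adjusted p = 0.00051). *gst-4* was at 35.7 ± 2.43 and 49.2 ± 0.953 FPKM at L4, a difference between the stages of 1.182 (SD, n = 3 libraries; limma, adjusted p = 7e-05). *unc-54* and *unc-15* did likewise. *unc-54* was at 661 ± 69.8 FPKM in WT and at 669 ± 78.0 FPKM in *alh-6* L4 animals, and *unc-15* at 577 ± 35.8 and 581 ± 44.1 FPKM (SD, n = 3), and both differences between the stages, 1.26 and 1.10, passed (limma, adjusted p = 0.0037 and 0.00038).

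The means of *vit-6* and *col-80* were lower in the mutant at L4. *vit-6* was at 2771 ± 269 FPKM in WT and at 2030.5 ± 416 FPKM in *alh-6* at L4 and differed by 1.10 between the stages, and *col-80* was at 957 ± 46.9 and 534 ± 126 FPKM at L4 and differed by 1.65 (SD, n = 3 libraries; limma, adjusted p = 0.0051 and 0.0022). In the other direction, *noah-1* was at 4.90 ± 1.177 FPKM in WT and at 15.9 ± 1.81 FPKM in *alh-6* L4 animals (SD, n = 3), with a difference between the stages of −2.72 (limma, adjusted p = 0.00016). For many other genes with large day 3 changes the difference between the stages did not pass, and 4 of them are given as examples. *acs-12* was at 6.94 ± 0.64 and 0.863 ± 0.148 FPKM at L4 (limma, adjusted p = 0.071 for the difference), *scb-1* at 6.23 ± 1.73 and 23.02 ± 0.914 FPKM (adjusted p = 0.23), *nlp-29* at 36.2 ± 2.79 and 19.2 ± 5.18 FPKM (adjusted p = 0.97) and *qdpr-1* at 74.6 ± 3.19 and 49.3 ± 7.93 FPKM (SD, n = 3; adjusted p = 0.34). Such a p does not show that the effects were the same at both stages.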

How the data were processed

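RNA from whole worms (TRI Reagent, NEBNext Ultra kit, which does not mark strand) was sequenced and quantified by the authors. The submitters' processing notes name CASAVA 1.8, Bowtie2 2.2.3, TopHat2 2.0.12, HTSeq 0.6.1, DESeq 1.18.0 and the ce11 build. The annotation and the treatment of reads that align to several genes are not given in the sources used here. The deposited FPKM values per library were the main data. Deposited group means of normalized read counts, a signal in the authors' tables, were used only to recover whole reads (100% of values came out whole). The authors' log2 fold changes and p-values of their own comparison were not used.

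Libraries were grouped by genotype and stage in the labels. limma 3.58.1 in R 4.3.3 was fitted to log2(FPKM + 0.1) of the 6 day 3 libraries (empirical Bayes with trend and robust settings, two-sided, Benjamini-Hochberg over all 10501 genes tested); fold changes are on this scale and understate low genes. The filter was an FPKM of 1 in 3 libraries. Day 3 libraries had 19611354 to 22502295 reads on genes. On simulated data for this comparison, limma called 50 of 50 and 49 of 50 genes set to 1 log2 unit higher and lower, and 10 unchanged genes. The changed genes had a WT mean of at least 50 reads, so recovery of genes with fewer reads was not tested. Every gene was given the same dispersion, 0.0045, taken from the WT libraries, and the *alh-6* libraries varied more than that. Of 46726 genes in the table, 46364 were in the WBcel235 annotation (release 115), which gave positions, and 43623 had a symbol. Genes whose exons overlap cannot be told apart without strand. Alternatives were pseudocounts of 1 and 0.01, no filter, a filter of 10 reads, median ratio rescaling, all 12 libraries in 1 fit, a replicate block, limma-voom, and leaving out each library.

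Members and gene lists were chosen with earlier results of these data known. Named genes were *alh-6*, the 12 largest rises and 12 largest falls among called genes with non-overlapping groups and a mean of at least 3 FPKM in the higher group, up to 5 called genes per list and direction, the P5C genes and the cell type markers. A search for SKN-1 motifs was not run.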

Additional observations from a re-analysis of the deposited data

Results flagged for a closer look

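Of the 140 called genes named above that could be tested, 71 had a genotype effect in day 3 adults that differed from the effect in L4 animals. The test was the interaction term (limma, adjusted p under 0.05). Of the 71, 47 were higher in *alh-6* than in WT day 3 adults. Over all genes the term passed for 1070 of 14497. The 140 genes were called in the same day 3 libraries that enter the term, so a larger share among them was built in. Each value below is the effect in day 3 adults minus the effect at L4, on the log2 scale. Among detoxification and other single risers it was 3.14 for *C15B12.8*, 3.88 for *gst-30*, 3.69 for *gsto-2*, 2.94 for *F56D6.9*, 2.50 for *icmt-1*, 1.95 for *cyp-14A3*, 1.45 for *sdz-8*, 1.30 for *C08E8.10*, 1.182 for *gst-4*, 1.16 for *swt-3*, 0.76 for *ugt-66*, 0.75 for *shk-1* and 0.55 for *far-6*.

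Muscle and basement membrane genes ranged from 0.48 to 1.26. The difference was 1.26 for *unc-54*, 1.10 for *unc-15*, 1.10 for *ketn-1*, 0.98 for *tnt-2*, 0.80 for *let-2*, 0.74 for *mlc-3*, 0.71 for *unc-87*, 0.70 for *emb-9*, 0.70 for *unc-27*, 0.66 for *act-4*, 0.60 for *mlc-2*, 0.57 for *mlc-1*, 0.50 for *dim-1*, 0.48 for *zyx-1* and 0.48 for *csq-1*. For cuticle collagens it was 1.81 for *col-142*, 1.65 for *col-80*, 1.49 for *col-160*, 0.97 for *col-159* and 0.84 for *col-94*. For vitellogenins it was 1.10 for *vit-6*, 1.05 for *vit-5*, 1.02 for *vit-2*, 0.79 for *vit-4* and 0.70 for *vit-3*, and for enzymes 1.14 for *aldo-1*, 0.60 for *pod-2*, 0.53 for *pck-1* and 0.49 for *ldh-1*. Other higher genes were 1.53 for *clec-190*, 0.93 for *clec-1*, 0.62 for *wago-4* and 0.58 for *lys-2*.

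Genes that were lower in *alh-6* than in WT day 3 adults mostly had negative differences. Cuticle and molting genes had −2.77 for *wrt-10*, −2.72 for *noah-1*, −1.89 for *cut-2* and −1.88 for *sqt-3*. Immune genes had −3.33 for *nlp-34*, −1.42 for *cnc-4*, −1.200 for *spp-18*, −1.12 for *spp-25*, −0.88 for *lys-4*, −0.65 for *clec-62* and −0.59 for *spp-3*. The remaining negative values were −1.05 for WBGene00014955, −2.53 for *Y110A2AL.9*, −1.02 for *ceh-43*, −0.51 for *dnj-2*, −0.90 for *epg-2*, −0.86 for *nhr-114*, −0.44 for *sex-1*, −1.03 for *smd-1* and −2.24 for *srlf-34*. *cav-1* and *hsp-43* were lower in *alh-6* than in WT day 3 adults but had positive differences, of 0.88 and 0.43. The piRNA identifiers, which rest on a few reads, had 5.54 for *21ur-10387*, −4.54 for *21ur-14951* and −2.06 for *21ur-3110*.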

How the results depend on the processing

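Counts of calls moved with the settings. Of the 140 called genes named above, 57 kept their call under all alternatives and 76 lost it without at least 1 library. The direction changed for 0 of the 140. In these genes the genotypes did not overlap, so leaving out a library or changing the pseudocount could not turn the direction. With no filter on low values, where more genes share the adjustment, 126 genes were higher and 117 lower. With median ratio rescaling 153 were lower and 21 lower at 2-fold. limma-voom on recovered reads gave 667 lower genes. A pseudocount of 1 gave 25 higher and 16 lower at 2-fold, and 1649 genes that differed between the stages against 1070. A filter of at least 10 reads in 3 libraries gave 67 lower at 2-fold. The labels number the replicates alike in both groups, but same-numbered day 3 libraries did not deviate together (r = −0.02, −0.13 and −0.12 across genes), so the numbers were not taken as pairs. With the replicate number as a block 182 genes were higher and 246 lower. Leaving out 1 library gave 92 to 311 higher and 55 to 922 lower genes, 31 to 47 and 17 to 77 at 2-fold, and 695 to 1040 genes that differed between the stages, the lowest without WT L4 replicate 3. The lower genes at 2-fold numbered 26, 28 and 17 without WT replicates 1, 2 and 3 and 77 without *alh-6* replicate 3. Values near 0 changed sign without being called: without 1 library the log2 fold change of *alh-6* ranged from −0.010 to 0.053, of *pycr-1* from −0.012 to 0.30 and of *rme-2* from −0.020 to 0.067. Few reads limited the genes under 10 reads, of which 177 were tested.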

Other observations

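Further gene lists gave few calls, as lists of this size would at the shares of all genes tested, 2.14% higher and 4.18% lower. Of 59 lists with at least 1 gene tested, 17 had no called gene, among them the core histones (26 tested, median 0.00), cyclins and their kinases (19, median −0.08), lipases (11, median 0.08), fatty acid binding proteins (9, median −0.06), acyl-CoA dehydrogenases (11, median −0.06) and the *pals* genes of the intracellular pathogen response (10, median −0.08). Of 31 aminoacyl-tRNA synthetases 30 had log2 fold changes below 0, as did 7163 of all 10501 genes tested. The median of the synthetases was −0.13, against −0.08 over all genes tested. Of the synthetases 2 were called lower, and none was called after rescaling. Of 50 BTB and MATH genes 2 were lower, and of 28 intestinal proteases 1 was higher and 1 lower. The mitochondrial unfolded protein response list gave 1 higher and 1 lower gene of 11, and the metal response list 1 lower gene of 22.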
